A study of Mus musculus with 9 samples.

Results

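Smooth muscle type contractile genes were followed in a wild-type (wtPrE) and an Rb-/- (Rb-/-PrE, here Rb-null) mouse prostate epithelial cell line. The 9 genes chosen by name were Smtn, Actg2, Acta2, Tagln, Cnn1, Tpm1, Tpm2, Myl9 and Cald1. This gene list was chosen with earlier results of these data known. All probe sets carrying one of these symbols were taken, whatever their values, and came to 9 of the 12421 probe sets with values. They covered 8 genes, with a pair of probe sets for Tpm2. Cald1, which encodes the actin-binding protein caldesmon, was matched by no probe set and was not analysed here.

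Each line was kept in RPMI-1640 medium with 5% fetal bovine serum or in the same medium without serum for 48 hours. The wild-type line in serum had 3 arrays and each other group had 2, 9 single-channel arrays in all. Every group was total RNA of 1 cell line per genotype, so a difference between the lines cannot be told apart from a difference between the genotypes. Separate cultures are not named for the arrays within a group, so the p-values measure only the spread between arrays, which may be technical.

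In smooth muscle these proteins form and regulate the contractile apparatus. Actin filaments (Acta2 and Actg2 encode its smooth muscle actins) are coated by tropomyosin (Tpm1, Tpm2), calponin (Cnn1) and caldesmon (Cald1), and myosin pulls on them once its regulatory light chain (Myl9) is phosphorylated. Smoothelin (Smtn) and transgelin (Tagln) bind the filaments. Many of these genes are transcribed under serum response factor (SRF) and its myocardin family partners, which act through a DNA element called the CArG box. Epithelial cells and fibroblasts also use several of them in stress fibres.

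RefSeq sequences upstream of the start (assembly GRCm38.p6) were at hand for 7 of the 9 genes, all but Actg2 and Tagln. Each window of 250 bases was searched on both strands for the CArG box and for a CArG-like form with a G or C at 1 of its central positions. Printed are Smtn, the gene with the largest genotype difference among the tested members, Acta2, the smooth muscle actin below the floor of detection described below, and Myl9, the only member with an exact CArG box in this window. The windows are, on the gene's own strand, chr11:3539293-3539542 (minus) for Smtn, chr19:34255374-34255623 (minus) for Acta2 and chr2:156775214-156775463 (plus) for Myl9. Capitals mark the GC box GGGCGG in Smtn and the CArG or CArG-like matches in Acta2 and Myl9.

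Smtn: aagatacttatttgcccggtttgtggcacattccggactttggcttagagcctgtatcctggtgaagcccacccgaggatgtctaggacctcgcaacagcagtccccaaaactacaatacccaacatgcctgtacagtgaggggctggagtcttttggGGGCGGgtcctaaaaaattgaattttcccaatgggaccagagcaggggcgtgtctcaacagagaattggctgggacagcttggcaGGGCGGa

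Acta2: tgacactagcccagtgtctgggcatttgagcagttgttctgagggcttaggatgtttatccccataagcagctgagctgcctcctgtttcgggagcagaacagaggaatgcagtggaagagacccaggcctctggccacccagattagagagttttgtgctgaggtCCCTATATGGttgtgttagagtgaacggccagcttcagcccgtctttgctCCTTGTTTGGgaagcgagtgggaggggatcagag

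Myl9: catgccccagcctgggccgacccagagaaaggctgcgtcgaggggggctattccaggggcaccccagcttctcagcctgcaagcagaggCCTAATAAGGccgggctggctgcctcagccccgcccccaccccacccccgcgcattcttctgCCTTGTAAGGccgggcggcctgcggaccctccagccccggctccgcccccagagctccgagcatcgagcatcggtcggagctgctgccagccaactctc

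The Myl9 window held an exact CArG box, CCTAATAAGG, beginning 161 bases upstream of the start, and a CArG-like match, CCTTGTAAGG, beginning 99 bases upstream. The Acta2 window held CArG-like matches only, CCCTATATGG beginning 84 bases and CCTTGTTTGG beginning 34 bases upstream. The windows of Smtn, Cnn1, Tpm1, Tpm2 and Cald1 held neither form. Across 32851 RefSeq windows of the same length, 1.47% held the exact box and 8.59% held either form. The GC box was found in Smtn (2 matches), Tpm1 (1), Tpm2 (2) and Myl9 (3), and in 32.7% of all windows, with no overlap between GC boxes and CArG matches. These matches describe the letters only.

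Values are quantile-normalised intensities. An intensity of 197, the percentile 25 of all values, served as a floor of detection, and a probe set above it on fewer than 2 arrays was not tested. The defining smooth muscle actin and calponin were not above the floor on any of the 9 arrays. Acta2 read 94 to 137 and Cnn1 read 110 to 142. The second Tpm2 probe set (161320_r_at) read 156 to 179. Myh11, which encodes smooth muscle myosin heavy chain and is no member, also stayed below the floor, at deposited intensities of 53 to 69. The tested members were thus Smtn, Actg2, Tagln, Tpm1, Tpm2 and Myl9, 1 probe set each, and all of these were above the floor on all 9 arrays. Part of the smooth muscle set thus read above the floor, and its defining genes did not. A reading above this floor does not by itself show expression. Of 14 striated muscle markers, only 1 was at or below it on all 9 arrays. Myod1 read 899 to 1031 and Myog 750 to 1064, as deposited. Epithelial keratins were on the arrays as labelled, with Krt8 at deposited intensities of 7877 to 10863 and Krt18 at 6278 to 9225.

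Over all probe sets, 1 array, wild-type serum 1, departed from its group (rank correlations of deposited intensities across probe sets 0.986 and 0.983 with the others of its group, against 0.997 between those). The targeted gene Rb1 (97948_at) read 713 on wild-type serum 1, 361 to 406 on the other wild-type arrays and 112 to 166 in Rb-null cells, as deposited. Its other probe set (161858_f_at) was not tested, at 44 to 78 in wild-type and 24 to 32 in Rb-null cells. Cytoplasmic actin (Actb) read 4089 on wild-type serum 1 against 8292 and 8372 on the other wild-type serum arrays by one probe set (101578_f_at), and 89 against 903 and 764 by another (95705_s_at). The part of RNA quality or hybridisation in these departures was not tested. Values without this array stand beside the main results that it moved.

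**Figure D1:**
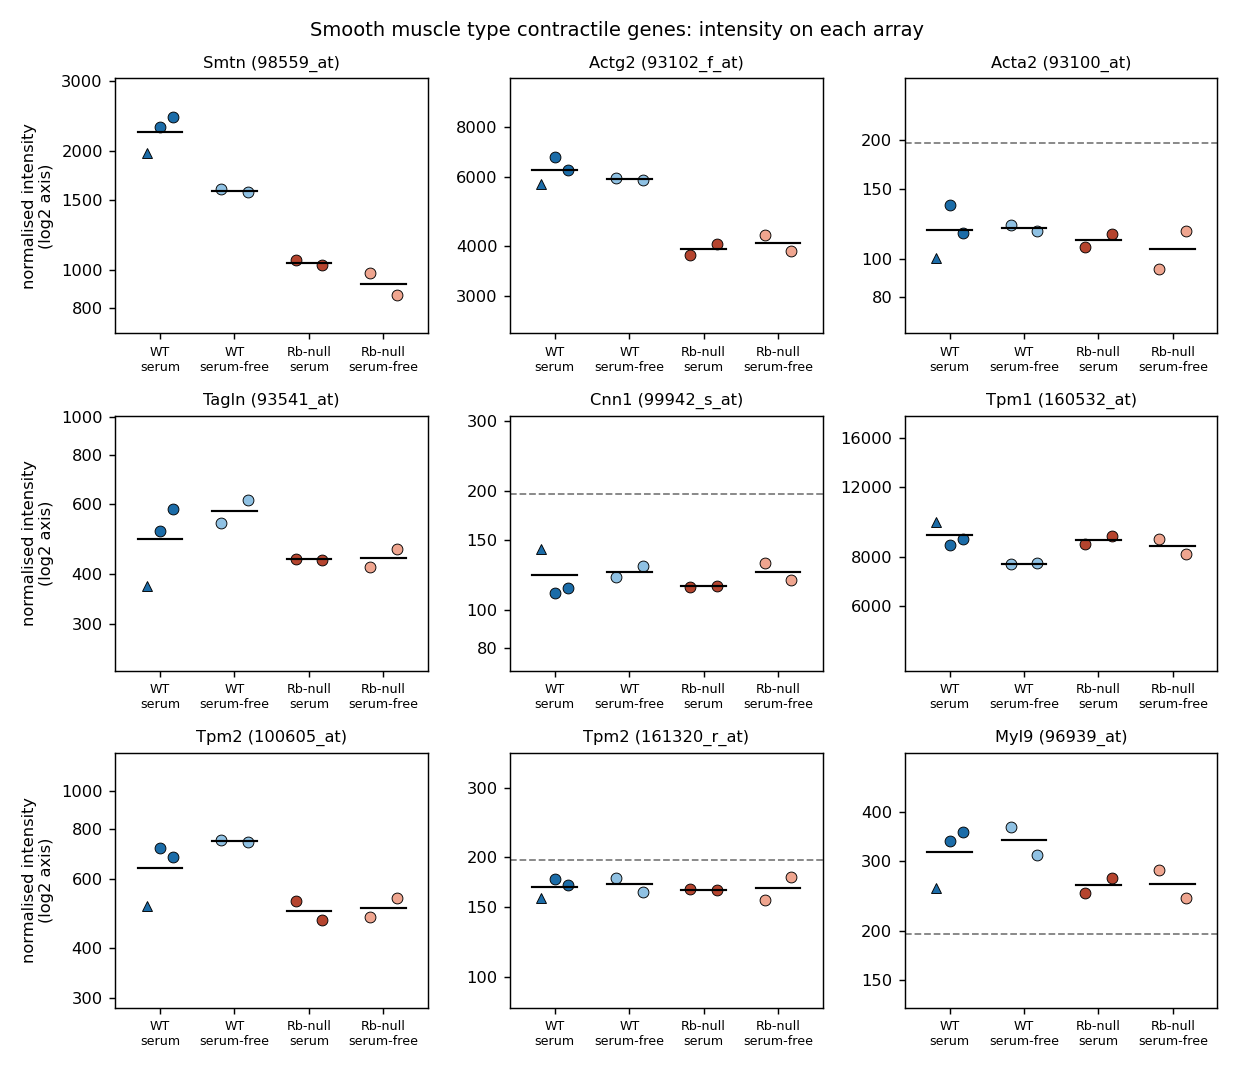
Quantile-normalised intensity (log2 axis, the same fold span in every panel) of the 9 member probe sets on each array, by group. Points are arrays, the triangle is wild-type serum 1, horizontal bars are group means and the dashed line is the floor of 197 where it falls in the panel. Smtn and Actg2 separate the lines without overlap, while Acta2, Cnn1 and the second Tpm2 probe set lie below the floor on every array.

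The first comparison asked whether the lines differed on average over the media. Smtn was 1.92-fold lower in the Rb-null line and Actg2 1.52-fold lower. Tpm2 was 1.37-fold and Myl9 1.24-fold lower, and the differences of Tagln and Tpm1 did not pass. In all 4 of the 6 tested probe sets were called lower and 0 higher, where 23.4% of all 9686 tested probe sets were called lower and 21.8% higher. The members' median log2 difference was -0.38, beside -0.05 over all tested probe sets. Without wild-type serum 1, 5 of the 6 were called lower, where 35.9% of all were. A call is an adjusted p under 0.05 (limma, Benjamini-Hochberg over all tested probe sets).

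Smtn encodes smoothelin, an actin-binding protein of contractile smooth muscle. Its probe set (98559_at) read 1973, 2296 and 2430 in wild-type cells with serum and 1595 and 1570 in those without. The Rb-null line gave 1058 and 1025 with serum and 978 and 864 without it. Every Rb-null array lay below every wild-type array, a pattern that 12.4% of all tested probe sets showed in this direction. The averaged log2 difference was -0.94 (SE 0.07, limma adjusted p = 1.88e-05, 5 wild-type and 4 Rb-null arrays). In serum it was -1.09 (SE 0.10, limma adjusted p = 8.79e-05) and without serum -0.78 (SE 0.11, limma adjusted p = 0.00111).

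The Actg2 probe set (93102_f_at), named for the smooth muscle gamma actin of gut and bladder wall, carries a suffix for probe sets that can hybridise to related transcripts. It read 5750, 6715 and 6242 in wild-type cells with serum and 5944 and 5899 in those without. Rb-null cells gave 3812 and 4051 with serum and 4283 and 3894 without it, again with no overlap between the lines. Its averaged log2 difference was -0.60 (SE 0.06, limma adjusted p = 4.51e-05), with -0.66 (SE 0.07) in serum and -0.54 (SE 0.08) without serum, both called. How much of this signal came from Actg2 itself was not tested. The related cytoplasmic actin Actg1 (96573_at) had an averaged log2 difference of -0.04 (SE 0.05, limma adjusted p = 0.45), and Actb (101578_f_at) -0.30 (SE 0.20, limma adjusted p = 0.241). With wild-type serum 1 left out, Actb stood at -0.47 (SE 0.03, limma adjusted p = 3.86e-06) on this probe set, which also carries the family suffix, and at -0.26 (SE 0.17, limma adjusted p = 0.214) on the other, while Actg1 stood at -0.07 (SE 0.04, limma adjusted p = 0.146).

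Tagln encodes transgelin, also called SM22 alpha, which cross-links actin filaments. It (93541_at) read 373, 515 and 584 in wild-type cells in serum, 537 and 616 without serum, 437 and 434 in Rb-null cells in serum and 417 and 463 without serum. Wild-type serum 1, at 373, was the lowest array of all, while the other wild-type arrays all lay above the Rb-null arrays. The share of all probe sets that separate the lines without this array was not counted, for Tagln here or for Tpm2 and Myl9 below. The averaged log2 difference was -0.27 (95% interval -0.55 to 0.01, limma adjusted p = 0.107) and did not pass. Without wild-type serum 1 it was -0.36 (SE 0.07, limma adjusted p = 0.00152) and passed.

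Of the tropomyosins, Tpm2 was called in the averaged genotype difference and Tpm1 was not. Tpm2 (100605_at), the tropomyosin beta chain, read 512, 718 and 681 in wild-type cells in serum and 750 and 741 without serum. Rb-null cells gave 525 and 471 with serum and 479 and 535 without it, overlapping the wild-type arrays only through wild-type serum 1. Its averaged log2 difference was -0.45 (SE 0.10, limma adjusted p = 0.00764), and -0.53 (SE 0.06, limma adjusted p = 7.78e-05) without that array.

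Tpm1 (160532_at), the tropomyosin alpha chain, read 9813, 8585 and 8881 in wild-type cells in serum and 7661 and 7721 without serum. Rb-null cells gave 8641 and 9052 with serum and 8881 and 8150 without it, inside the range of the wild-type arrays. The averaged log2 difference of 0.05 (95% interval -0.05 to 0.16, limma adjusted p = 0.376) did not pass. It was 0.13 (limma adjusted p = 0.0397) and passed in the deposited values. Whether the Tpm1 and Tpm2 differences themselves differ was not tested.

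Myl9, the regulatory light chain of smooth muscle and non-muscle myosin, gave the weakest of the called differences. Its probe set (96939_at) read 256, 338 and 354 in wild-type cells in serum, 366 and 311 without serum, 250 and 271 in Rb-null cells in serum and 284 and 242 without serum. All arrays lay within 2-fold of the floor, and the lines overlapped through wild-type serum 1. The averaged log2 difference was -0.32 (SE 0.11, limma adjusted p = 0.0369), and -0.39 (SE 0.07, limma adjusted p = 0.00122) without wild-type serum 1. Leaving out any of 6 other arrays ended the call (serum 2 or 3 or serum-free 1 of the wild-type line, serum 1 or 2 or serum-free 2 of the Rb-null line; adjusted p of at most 0.138), and with the floor at percentile 40 the difference was -0.05 (limma adjusted p = 0.282).

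**Figure D2:**
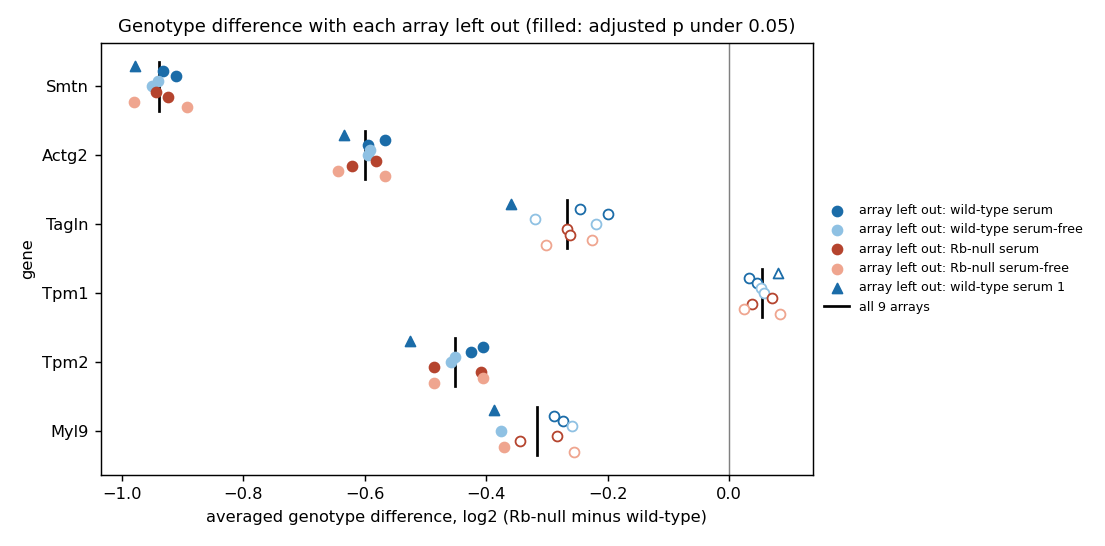
Averaged genotype difference (log2, Rb-null minus wild-type) of the 6 tested probe sets with all 9 arrays (black line) and with each array left out (points, coloured by the group of the array left out, the triangle for wild-type serum 1). Filled points have an adjusted p under 0.05: Smtn, Actg2 and Tpm2 keep their calls in every case, Myl9 in 3 of 9 and Tagln has one only without wild-type serum 1.

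Within each medium the counts were smaller. In serum 2 of the 6 tested probe sets, Smtn and Actg2, were called lower, where 10.4% of all tested were. Without wild-type serum 1, 5 of the 6 were called lower in serum, where 23.6% of all were, with Tagln at -0.33, Tpm2 at -0.49 and Myl9 at -0.41 in place of -0.15, -0.34 and -0.27. That array lay below the mean of the other wild-type serum arrays by 0.56 (log2) for Tagln, 0.45 for Tpm2, 0.44 for Myl9, 0.26 for Smtn and 0.17 for Actg2, and above it by 0.17 for Tpm1.

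Without serum 3 of the 6 were called lower, Smtn, Actg2 and Tpm2, where 13.9% of all tested were. The Tpm2 difference was -0.56 (SE 0.15, limma adjusted p = 0.0253), which no longer passed once any 1 of the 4 serum-free arrays was left out (limma adjusted p from 0.0552 to 0.142). Tagln stood at -0.39 (SE 0.18, limma adjusted p = 0.129) and Myl9 at -0.37 (SE 0.16, limma adjusted p = 0.101). In this medium, where wild-type serum 1 takes no part in the means, every Rb-null array lay below every wild-type array for Smtn, Actg2, Tagln, Tpm2 and Myl9, as it did for 43.8% of all tested probe sets. For Tpm1 every Rb-null array lay above, as for 30.5% of all, with a log2 difference of 0.15 (SE 0.07, limma adjusted p = 0.138). Tagln, Myl9 and Tpm1 passed without wild-type serum 1 (limma adjusted p = 0.00897, 0.0142 and 0.0496), which enters through the shared spread. In that setting 4981 of all 9654 tested probe sets were called in either direction, with 28.2% called lower.

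The next comparisons asked how serum withdrawal moved these genes in each line. In the wild-type line Smtn fell by 0.49 on the log2 scale (SE 0.10, limma adjusted p = 0.00985) and Tpm1 by 0.24 (SE 0.06, limma adjusted p = 0.0345), both with no overlap between media, as for 19.2% of all tested probe sets in this direction. These were 2 of the 6 tested probe sets called lower, where 9.25% of all tested were, and 0 were called higher, against 6.61%. Tagln (0.26, SE 0.17) and Tpm2 (0.24, SE 0.14) did not pass, and without wild-type serum 1 they stood at 0.07 and 0.09. Actg2 (-0.07) and Myl9 (0.11) did not pass either, and without that array they stood at -0.13 and -0.04. Leaving out either wild-type serum-free array ended the Smtn and Tpm1 calls (limma adjusted p from 0.0745 to 0.169), and the Tpm1 call also without Rb-null serum 1 or 2 (0.0583 and 0.0559).

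In the Rb-null line 0 of the 6 tested probe sets were called by limma after serum withdrawal, where 13.9% of all tested were called in either direction, and 0 had an unadjusted p under 0.05. Smtn stood at -0.18 (95% interval -0.43 to 0.07, limma adjusted p = 0.394), and its arrays did not overlap between media, as for 26.3% of all tested in this direction. The others lay between -0.06 (Tpm1) and 0.06 (Actg2). The test of the difference between the lines in their response to withdrawal passed for 0 of the 6, where 0.929% of all tested passed, and 0 had an unadjusted p under 0.05. For Smtn it gave 0.31 (SE 0.15, limma adjusted p = 0.497) and for Tpm1 0.18 (SE 0.10, limma adjusted p = 0.54), so a different response of the lines was not shown for either gene. These were 0.40 (limma adjusted p = 0.0939) and 0.12 (limma adjusted p = 0.529) when wild-type serum 1 was left out. The genotype and withdrawal comparisons share arrays.

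**Figure D3:**
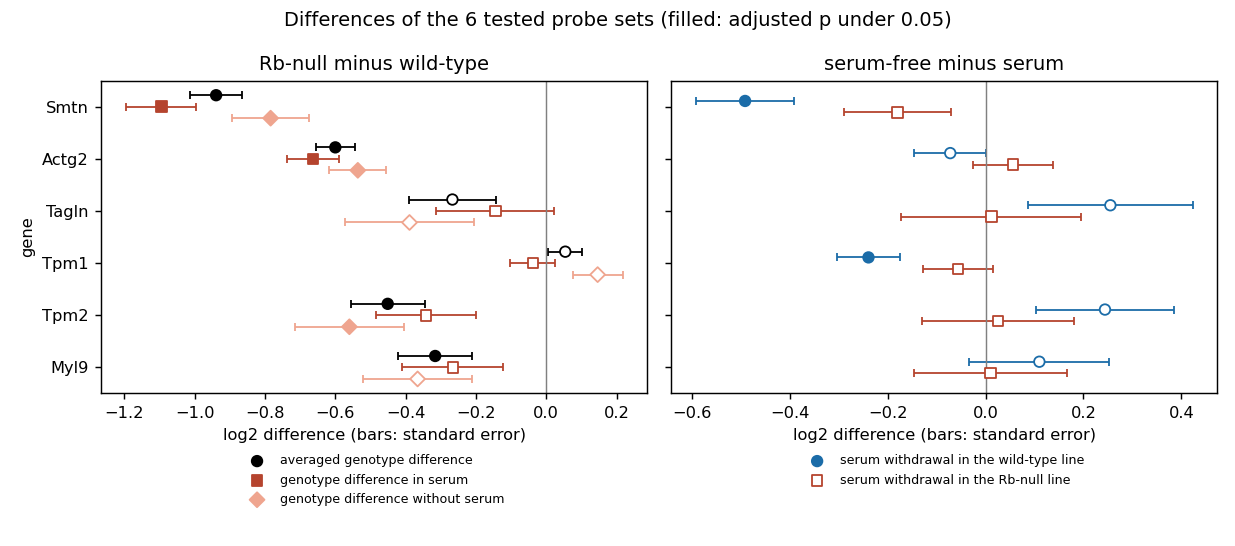
Log2 differences with standard errors of the 6 tested probe sets, Rb-null minus wild-type on the left (averaged, in serum, without serum) and serum-free minus serum on the right (each line). Filled points have an adjusted p under 0.05: Smtn and Actg2 are filled in all 3 genotype comparisons, and Smtn and Tpm1 in the wild-type withdrawal.

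By group, mean intensity for Smtn was 2233 in wild-type cells with serum and 1582 without, then 1041 in Rb-null cells with serum and 921 without. The step between the wild-type groups passed and the step between the Rb-null groups did not, while the middle step was not tested. The Actg2 order was 6235 with and 5922 without serum in the wild-type line, then 4089 without and 3931 with serum in the Rb-null line. No Actg2 step within a line passed the threshold. Tagln, Tpm2 and Myl9 had their highest means in wild-type serum-free cells (577, 746 and 338), then in wild-type serum (491, 637 and 316). Their Rb-null means, with serum and then without it, were 436 and 440, 498 and 507, and 260 and 263. Without wild-type serum 1 the wild-type serum means were 550, 699 and 346, which put Myl9 highest in wild-type serum. Tpm1 alone had its lowest mean in wild-type serum-free cells, at 7691. Its highest was 9093 in wild-type serum with all arrays, and 8846 in Rb-null serum once wild-type serum 1 was left out, which put wild-type serum at 8733.

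Members varied together to different degrees over the 9 arrays (log2 values, groups included, as a description). Smtn and Actg2 had a Pearson r of 0.94, Tagln and Tpm2 0.87 and Tpm2 and Myl9 0.82. Tpm1 ran against Tagln (-0.71) and Tpm2 (-0.65). For Smtn and Tagln r was 0.43 with all arrays and 0.77 over the 8 arrays without wild-type serum 1. These points share the genotype shift and the same arrays. Among all tested probe sets of another named gene, those most like Smtn over the 9 arrays were Acp1, a phosphatase, Nes, the intermediate filament nestin, and Nfyc, a subunit of the transcription factor NF-Y (r = 0.98 each), with averaged log2 differences of -0.57, -1.27 and -0.39. Most like Actg2 were Stag3 (r = 0.99), Sh2b3 (0.98) and Tln1 (0.98), the focal adhesion protein talin, and most like Tagln were Casp9 (0.99), Sh2d2a (0.98) and Cxcl12 (0.98). The Actg2 matches had averaged log2 differences of -0.404, -0.31 and -0.585, all called. Those of the Tagln matches, -0.338, -0.193 and -0.147, did not pass. Acta2, below the floor, had no pattern to compare.

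Related genes were read from 4 lists, 1 probe set a gene, in the averaged genotype difference. In that comparison 23.4% of all tested probe sets were called lower and 21.8% higher. Of 22 other SRF-linked cytoskeletal and smooth muscle genes, 16 were tested, and 11 were lower in the Rb-null line and 0 higher, with a median of -0.34. The 11 became 6 in the deposited values and 7 when the arrays were given a common median, each with 1 gene higher, while 12.5% and 16.8% of all tested probe sets were then lower. Csrp1, a LIM protein of smooth muscle, stood at -0.61 (SE 0.09, limma adjusted p = 0.000535), and the LIM proteins Fhl1 and Fhl2 at -0.40 and -0.33. Without wild-type serum 1, 12 of 16 were lower, where 35.9% of all tested were.

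Of 12 SRF and myocardin family regulators, 6 were tested. Klf4, a transcription factor known to repress smooth muscle genes, was higher in the Rb-null line at 0.71 (SE 0.07, limma adjusted p = 8.04e-05). The SRF partner Elk1 was lower at -0.34 and the transcription factor Gata6 at -0.26. Mrtfa, of the myocardin family, stood at -0.20 (SE 0.12, limma adjusted p = 0.188) and Klf5 at -0.07 (SE 0.05, limma adjusted p = 0.314). Neither of these passed. In all 3 were lower, where 23.4% of all tested probe sets were, and 4 without wild-type serum 1, where 35.9% were. The count became 1 in the deposited values, with a common median, and when the array serum-free 1 of the wild-type line or serum 1, serum 2 or serum-free 1 of the Rb-null line was left out. Srf and Myocd had no probe set under these symbols.

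Non-muscle relatives of the members were lower for 6 of 12 tested and higher for 0 (9 lower without wild-type serum 1). Of all tested probe sets 23.4% were lower and 21.8% higher (35.9% lower without that array). Cnn2, a calponin of non-muscle cells, stood at -1.31 (SE 0.07, limma adjusted p = 1.46e-06), the non-muscle myosin heavy chain Myh9 at -0.92 (SE 0.08, limma adjusted p = 2.38e-05) and the regulatory light chain Myl12b at -0.51. Genes of myosin light chain phosphorylation were lower for 3 and higher for 2 of 10 tested, beside the same shares of all. Without wild-type serum 1 they were lower for 6, where 35.9% of all were, and higher for 2. The small GTPases Rhoc and Rhoa stood at -1.56 (SE 0.06, limma adjusted p = 1.06e-07) and -0.42. The 2 higher genes were Rock1, a kinase that acts on myosin phosphatase, at 0.46 (SE 0.06, limma adjusted p = 0.000555), and Ppp1cb, the catalytic subunit of that phosphatase, at 0.55, the latter named after its value was seen.

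**Figure D4:**
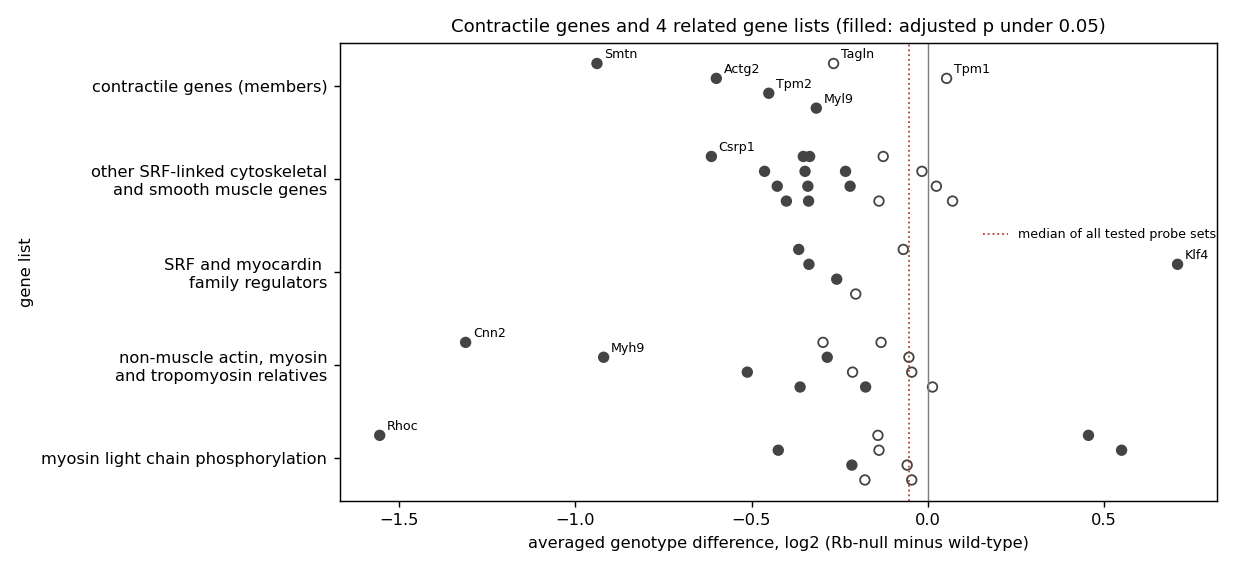
Averaged genotype difference (log2, Rb-null minus wild-type) of the 6 tested contractile genes and of the tested genes of 4 related lists, 1 point a gene. Filled points have an adjusted p under 0.05 and the dotted line is the median of all tested probe sets, -0.05; points beyond 0.6 from zero are named in the lists, among them Rhoc, Cnn2 and Myh9 on the low side and Klf4 on the high side.

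Markers of other cell types were read beside the members. In the averaged genotype difference 23.4% of all tested probe sets were called lower and 21.8% higher. Of 6 further smooth muscle markers 3 had a probe set, and their summed deposited intensity was 1302 to 1452 in the wild-type line and 1149 to 1224 in the Rb-null line. Desmin (Des) and Itga8, which the SRF-linked list also holds, were lower at -0.34 and -0.35, and Myh11 was below the floor. Fibroblast markers summed to 3669 to 4498 in wild-type and 3854 to 4186 in Rb-null cells, with 3 of 10 below the floor on all arrays and 1 of 6 tested lower. Striated muscle markers summed to 6166 to 6906 in wild-type and 6074 to 7369 in Rb-null cells, with 3 of 13 tested lower and 1 higher, the cardiac troponin Tnnt2 at 0.71. Basal and myoepithelial markers summed to 3025 to 3659 and 2835 to 3235, with 1 of 5 lower, the cadherin Cdh3 at -0.56. Luminal and general epithelial markers summed to 35972 to 42400 and 38686 to 43194, with 1 of 7 lower, the claudin Cldn7 at -0.27. Their part in the members' differences was not tested, and fewer cells of a type and less RNA per cell cannot be told apart in these bulk samples.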

How the data were processed

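Total RNA of 2 cell lines was measured on 9 single-channel arrays. Per probe set and array, 1 linear intensity was deposited by the authors. How these were summarised and scaled is not stated in the labels. Array medians ran from 445 to 474, and upper quartiles spanned 0.22 on the log2 scale, above the 0.1 that triggered quantile normalization. Values were raised to the floor (percentile 25, 197) and taken to log2. Probe sets above it on fewer than 2 arrays were not tested, which left 9686. Symbols came from the platform annotation, updated by gene identifier (GRCm38.p6): 10832 probe sets had 1 gene, 396 several and 1193 none.

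A limma 3.58.1 fit (R 4.3.3) of 4 group means over all 9 arrays used an intensity trend, two-sided tests and Benjamini-Hochberg adjustment (5 residual and 4.20 prior degrees of freedom). The procedure was tested on simulated data. The number of arrays limits the precision. Alternatives changed the normalization, floor, filter, variance trend, replicate block or left out an array. Members, lists and alternatives were chosen with earlier results of these data known. All member probe sets were named, and up to 3 genes a list with the smallest adjusted p. So were the 3 genes most like Smtn, Actg2 and Tagln. Actb, Actg1, Rb1, Myh11, Krt8, Krt18, Mrtfa, Klf5 and Ppp1cb were chosen for context after their values were seen. Whether same-numbered arrays were paired is not stated in the labels. Correlations of their deviations from group means ran from -0.231 to 0.331. In every group but wild-type serum the deviations of the arrays mirror each other, so these correlations cannot decide whether arrays were paired.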

Additional observations from a re-analysis of the deposited data

How the results depend on the processing

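Smtn and Actg2 kept their direction and their calls in the 3 genotype comparisons under every alternative run, and Tpm2 in the averaged one. The count of member probe sets called in the wild-type withdrawal, 2, became 1 with no filter on low values and 1 with no intensity trend, since Tpm1 was lost (adjusted p = 0.103 and 0.0784). With 1 array left out, the counts ran from 3 to 5 in the averaged genotype difference (4), from 2 to 5 in serum (2), from 2 to 6 without serum (3), from 0 to 2 in the wild-type withdrawal, and stayed at 0 in the Rb-null withdrawal and in the interaction. Where an array left out leaves 1 in a group, that array is assumed to vary like the others. With the replicate block the counts were 3, 2, 4, 2, 0 and 0; Myl9 was lost in the averaged difference (adjusted p = 0.072) and Tagln passed without serum (0.0447). With no filter Myl9 (averaged, adjusted p = 0.109) and Tpm2 (without serum, 0.0779) were lost. The called probe sets of the averaged difference were higher for 48.1% as normalised, 69.3% as deposited and 60.7% with a common median; the members' 4 lower calls stood in each, with Tpm1 called higher as deposited. With the floor at percentile 10 (an intensity of 94), Acta2, Cnn1 and the second Tpm2 probe set were tested and did not pass in any comparison (averaged log2 differences -0.13, -0.04 and -0.02). Signal close to the floor limits Myl9, and 2 or 3 arrays a group limit all members. The causes of these changes were not tested.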
